A study of Mus musculus with 2 samples.

Results

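Levels and transcript forms are described here for 10 genes whose RNA acts without being translated or carries small nucleolar RNAs (snoRNAs) in its introns: Malat1, Neat1, Gas5, Snhg1, Snhg6, Snhg8, Snhg11, Snhg12, Snhg18 and Snord13. They were picked by gene name out of 18580 annotated genes with reads, and every transcript model under these names was taken. The list was chosen with measured values of these same libraries in view, and Malat1 and Snord13 had already stood out by their reads, so differences between the libraries are given for the 10 genes as descriptions without a test. The members had 37 of 107755 transcript models in replicate 1 and 52 of 137106 in replicate 2. In replicate 1, 7 of the 10 genes had reads, and in replicate 2 all 10 did.

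The libraries came from adrenal glands of 10-day-old male mice of the hybrid strain B6CASTF1/J, and the labels name no treatment and no genotype contrast. Both belong to a single group, and total RNA was read as long cDNA molecules, so a read can show the exon chain of a transcript. The labels number the libraries as biological replicates 1 and 2 but give them the same donor, and they name the animals inconsistently, so the spread between them may be technical. An input of 1 µg is stated for replicate 2 only.

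Replicate 1 had 927914 reads on annotated genes and replicate 2 had 1303420. Markers of the adrenal cortex summed to 22850 and 16234 CPM (reads per 1000000 reads on annotated genes) in replicates 1 and 2, and medulla markers to 11403 and 6053 CPM. Liver markers summed to 8570 and 25963 CPM, brown fat markers to 6302 and 7549 CPM, and red cell markers to 1329 and 4599 CPM, and every listed marker had reads in both libraries. Single-exon models took 6.53% of reads on annotated genes in replicate 1 and 14.3% in replicate 2, and the mean length of the models, weighted by reads, was 2329 and 1876 nt. The libraries thus differed in tissue markers, in transcript length and in single-exon reads at the same time, and the part of each in the differences below was not tested. In whole tissue, fewer cells of a type and less RNA per cell cannot be told apart.

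Malat1 and Neat1 are long RNAs kept in the nucleus. Malat1 gathers at nuclear speckles, the stores of splicing factors, and its mature 3′ end is closed by a triple helix in place of a poly(A) tail. Neat1 makes a short polyadenylated form and a long form, and the long form is the scaffold of paraspeckles, nuclear bodies that hold RNA-binding proteins and edited RNAs. Box C/D snoRNAs guide 2′-O-methylation of ribosomal RNA and box H/ACA snoRNAs guide pseudouridylation, and most are cut out of the introns of host genes. In the host genes studied here the spliced exons are mostly a by-product, and several, Gas5 among them, are degraded by nonsense-mediated decay during translation. Their promoters often start in a run of pyrimidines (a 5′ terminal oligopyrimidine tract), as those of ribosomal protein genes do. Snord13 stands apart as a snoRNA transcribed from its own promoter, and it is known to guide acetylation of a cytidine of 18S ribosomal RNA.

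A pair of hosted snoRNAs is shown, 1 of each box class, because they mark the kinds of RNA that the hosts carry. Sequences are those of the GENCODE M21 transcripts on mm10, written 5′ to 3′ with T for U. Snord47 lies at chr1:161038082-161038158 on the plus strand in an intron of Gas5, and Snora24 at chr3:123507937-123508066 on the minus strand in an intron of Snhg8. Capitals mark the first TGATGA (C box letters) and the last CTGA (D box letters) in Snord47, and the last ACA in Snora24. They were found by matching letters alone, so the boxes that act in the RNA may lie elsewhere, the C box of Snord47 above all.
Snord47: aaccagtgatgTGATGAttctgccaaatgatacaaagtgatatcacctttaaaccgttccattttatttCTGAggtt
Snora24: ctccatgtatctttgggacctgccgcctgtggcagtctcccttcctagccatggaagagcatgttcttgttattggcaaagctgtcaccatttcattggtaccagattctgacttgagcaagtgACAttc
The matched TGATGA of Snord47 starts at base 12 of 77 and the matched CTGA at base 70, with 4 bases after it. Both sets of letters, searched on the RNA strand, occur in 380 of 1507 annotated snoRNA transcripts (25.2%). The ACA letters of Snora24 stand 3 bases before its 3′ end.

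Malat1 had 23 reads in replicate 1 and 1708 in replicate 2, or 24.8 CPM (95% exact Poisson interval 15.7 to 37.2) and 1310 CPM (1249 to 1374). These intervals, like those that follow, cover counting error only. Malat1 was 6279th of the genes with reads in replicate 1 and 79th in replicate 2, a difference far beyond the counting intervals (668 ± 909 CPM, SD, n = 2). Snord13 had no read in replicate 1, for which 3 reads, or 3.23 CPM, were taken as the limit (the exact Poisson interval reaches 3.98 CPM), and 238 reads in replicate 2, or 183 CPM (160 to 207). Against the 3-read limit it was at least 56.5-fold higher in replicate 2. These 2 genes together held 14.6% of the member reads in replicate 1 and 86.5% in replicate 2.

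The other members were far closer. Neat1 had 55 and 105 reads, or 59.3 CPM (44.7 to 77.2) and 80.6 CPM (65.9 to 97.5), and the intervals overlapped. Gas5, named for its rise in growth-arrested cells, had 47 and 92 reads, or 50.7 CPM (37.2 to 67.4) and 70.6 CPM (56.9 to 86.6), again with overlapping intervals. Snhg1 had 10 and 18 reads, or 10.8 and 13.8 CPM. Snhg18 had 12 and 29 reads, or 12.9 and 22.2 CPM. For both of these hosts the intervals overlapped widely.

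Snhg8, the host of Snora24, had 8 and 38 reads, or 8.62 CPM (3.72 to 17) and 29.2 CPM (20.6 to 40.0), and here the intervals did not meet. Snhg6, the host of Snord87, had 2 and 13 reads, or 2.16 CPM (0.261 to 7.79) and 9.97 CPM (5.31 to 17.1), with overlapping intervals. Snhg12 had 0 and 7 reads and Snhg11 had 0 and 1, so neither could be placed with any precision at this depth. Snhg11 is listed as protein-coding in the annotation, unlike the other 9 members.

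**Figure D1:**
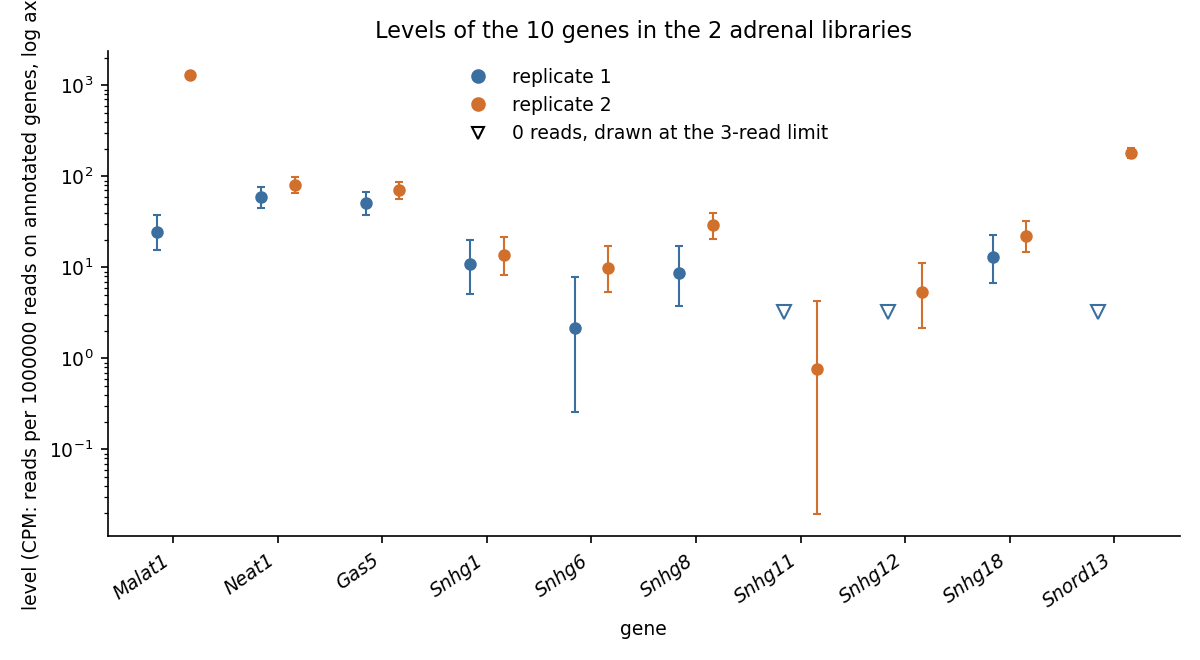
Level of each gene in replicate 1 and replicate 2 in CPM, on a log axis, with 95% exact Poisson intervals as bars and open triangles at the 3-read limit where a library had 0 reads. Malat1 (24.8 and 1310) and Snord13 (0 and 183) stand apart, while the bars of Neat1, Gas5, Snhg1, Snhg6 and Snhg18 overlap between the libraries.

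The order of the members differed between the libraries. A read counts as 1 molecule, so these levels are not divided by transcript length, and the order is one of reads. In replicate 1 Neat1 and Gas5 led, with overlapping intervals, followed by Malat1, and the hosts Snhg18, Snhg1 and Snhg8 came next with intervals that overlapped one another and that of Malat1. In replicate 2 Malat1 led, followed by Snord13, then Neat1 and Gas5, whose intervals again overlapped. Snhg8, Snhg18, Snhg1, Snhg6 and Snhg12 followed in that order, each with an interval that overlapped the next. The 7 snoRNA hosts summed to 85.1 CPM (67.4 to 106) and 152 CPM (131 to 175), or 119 ± 47.2 CPM (SD, n = 2). All 10 members summed to 169 and 1725 CPM.

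Of the 10 members, 8 had at least 10 reads over both libraries, and Snhg11 and Snhg12 did not. Snord13 (0 and 238 reads), Snhg6 (2 and 13) and Snhg8 (8 and 38) reached 10 only through replicate 2, where they are high. A gene counted as 2-fold higher or lower by its log2 ratio of replicate 2 to replicate 1, with 0.5 reads added to each count. Among the 8, Malat1 (log2 ratio 5.69), Snhg6 (1.94), Snhg8 (1.69) and Snord13 (8.41) were 2-fold or more higher in replicate 2, and none was 2-fold lower. Among all 11650 genes with that many reads, 13.4% were 2-fold or more higher in replicate 2 and 14.8% were 2-fold or more lower, and nothing is read from the members' count because they were chosen with it known. The remaining ratios were 0.75 for Snhg18, 0.47 for Gas5, 0.44 for Neat1 and 0.33 for Snhg1.

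Genes were sorted into 20 bins by transcript length, and against the median of the bin the ratios changed order. The bins were broad. Snord13 (104 nt) was shifted by as much as Snhg1 (605 nt), and Malat1 by as much as Neat1. Snord13 was thus not set against genes of its own length alone. Malat1 kept a ratio of 6.0 and Snord13 one of 6.96, while Snhg6 and Snhg8 were at 0.50 and 0.24, Gas5 turned to -0.98 and Snhg1 to -1.12. Only Malat1 and Snord13 stayed 2-fold higher on that scale and Snhg1 became 2-fold lower. Most of the host transcripts are short (Snhg8-201 has 448 nt and Gas5-210 has 557 nt), and among all 520 tested genes with a main transcript of 700 nt or less the median log2 ratio was 1.54. Over all 11650 genes it was -0.25.

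**Figure D2:**
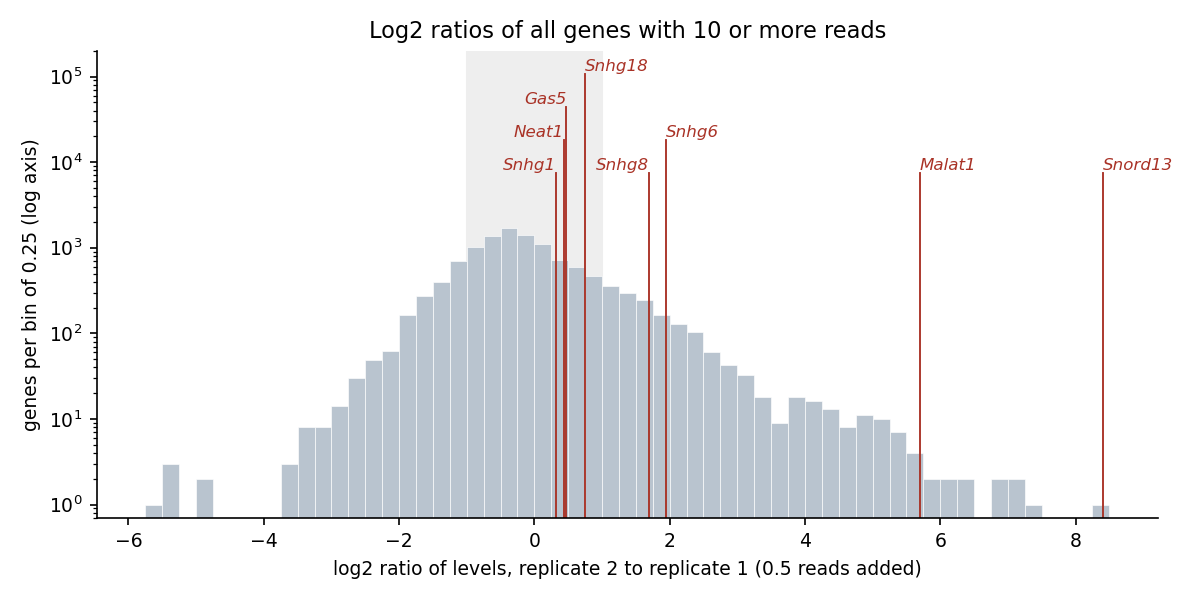
Histogram of the log2 ratio of replicate 2 to replicate 1 for the 11650 genes with 10 or more reads, with the number of genes per bin on a log axis, red lines for the 8 members that had enough reads, and the range within 2-fold shaded. Snhg1, Neat1, Gas5 and Snhg18 lie in the shaded range, and Malat1 (5.69) and Snord13 (8.41) lie in the far right tail.

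The way the reads were spliced largely followed the annotated exon structure of the genes, with Neat1, given further on, between Malat1 and the hosts. The tables sort each model as annotated (Known), as an incomplete match to an annotated exon chain (ISM), as a new combination of annotated splice sites (NIC), as holding a new splice site (NNC), or as another match within a gene, here always single-exon (Genomic). Malat1 and Snord13 each had a single model, the annotated single-exon one, in all their reads. The hosts were nearly always spliced, with single-exon reads at 2.53% of 79 reads in replicate 1 (95% exact binomial interval 0.308 to 8.85%) and 4.55% of 198 in replicate 2 (2.10 to 8.45%). Over all members the single-exon share was 35.7% and 91.3%, and it moved with the reads of Malat1 and Snord13: over the hosts alone the 2 libraries had overlapping intervals.

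Annotated models took 69.4% of member reads in replicate 1 (61.6 to 76.5%) and 97.8% in replicate 2 (97.1 to 98.3%). Over all annotated genes they took 79.8% and 73.9% of reads, which moved the other way. For the hosts alone the shares were 68.4% (56.9 to 78.4%) and 78.3% (71.9 to 83.8%), with overlapping intervals. New combinations of annotated splice sites took 20.3% of host reads in replicate 1 and 10.1% in replicate 2, all 16 of these reads in replicate 1 and 19 of 20 in replicate 2 being from Gas5. A new splice site was seen in 1 and 3 host reads.

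**Figure D3:**
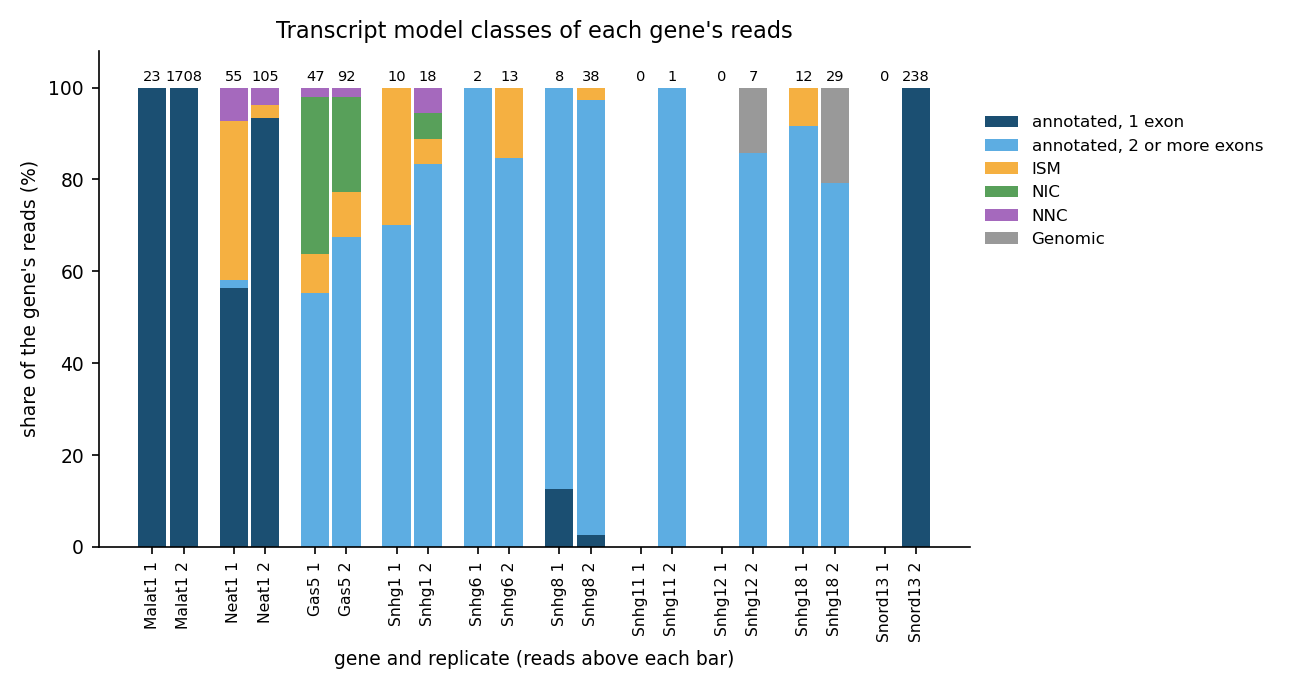
Share of each gene's reads by transcript model class in replicates 1 and 2, in percent, with the number of reads above each bar and no bar where a gene had 0 reads. Malat1 and Snord13 are wholly annotated single-exon, Neat1 goes from 56.4% to 93.3% annotated single-exon reads, and Gas5 has the largest green share of new splice combinations.

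Malat1 lies at chr19:5795690-5802672 on the minus strand as a single exon of 6983 nt. Its reads are all credited to this model, but the tables do not give where each read began and ended, so full-length copies cannot be told from fragments. The longest run of A in the transcript is shown to be set beside that of Snhg18, given further on, where a model ends at such a run. The stretch lies at chr19:5795958-5796029, and capitals mark the run.
Malat1 A run: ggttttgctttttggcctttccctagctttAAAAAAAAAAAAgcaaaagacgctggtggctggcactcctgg
The run is 12 bases long, spans bases 6674 to 6685, and ends 298 bases before the annotated 3′ end. The annotated end need not be the mature 3′ end described above. How the run lies to the mature end is not given in the sources used here. It may be part of that end, and it is not shown to be internal to the mature RNA. A run of at least that length is found in 4.07% of 141767 annotated transcripts, and in 19.2% of those of like length (within 1.25-fold). The annotated gene Gm27694 inside Malat1 on the same strand had 0 and 3 reads.

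Neat1 neighbours Malat1 on the same strand, at chr19:5824708-5845478, and showed the clearest difference in transcript form among reads credited to the members. Reads credited to short genes inside Neat1, given further on, are left out of the shares here. Spliced models took 24 of 55 reads in replicate 1 (43.6%, 30.3 to 57.7%) and 7 of 105 in replicate 2 (6.67%, 2.72 to 13.3%), and the intervals did not overlap. The annotated single-exon model Neat1-201, of 20771 nt, took 31 and 98 reads. As for Malat1, where each read began and ended is not given, so reads of the long form cannot be told from shorter unspliced ones. All the spliced models, 6 in replicate 1 and 3 in replicate 2, shared a 3′ end 3172 nt from the gene start, which is that of the annotated 2-exon model Neat1-202. Whether the authors' pipeline moves model ends onto annotated ones is not stated. Neat1-202 itself had 1 and 0 reads.

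One intron was in 22 of the 24 spliced reads in replicate 1 and in all 7 in replicate 2, and it was the sole intron of 16 and 3 of them. It is shown because it carries most of the splicing seen in Neat1, and no annotated Neat1 model with reads holds it. The stretch below runs from chr19:5844420-5844592 on the minus strand, with 15 bases on each side of the 143-base intron, and capitals mark the first and last 2 bases of the intron.
Neat1 intron: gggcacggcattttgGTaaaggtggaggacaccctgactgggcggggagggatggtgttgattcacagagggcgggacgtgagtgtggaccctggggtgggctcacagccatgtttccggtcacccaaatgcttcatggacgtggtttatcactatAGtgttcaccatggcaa
The intron has the usual GT and AG ends and spans bases 902 to 1044 of Neat1-201. Up to the shared 3′ end, the longest run of A in Neat1 is 5 bases, against 12 in Malat1.

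The annotation also holds 3 short genes of the class misc_RNA within the first 1193 bases of Neat1 on its own strand, and one of them held more reads than Neat1 did. Gm28006, of 122 nt, had 222 reads in replicate 1 and 177 in replicate 2, against 55 and 105 for Neat1 itself. Gm27533 had 8 and 9 reads and Gm27505 had 3 and 1. Gm28006 is shown in full because its letters are those of bases 442 to 563 of Neat1-201, and a read of an unspliced RNA from this place fits both genes. It lies at chr19:5844916-5845037 on the minus strand, and no letters are capitalised.
Gm28006: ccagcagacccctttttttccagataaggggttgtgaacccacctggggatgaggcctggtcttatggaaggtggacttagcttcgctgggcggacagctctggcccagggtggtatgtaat
Counted together with the genes inside it, Neat1 had 288 and 292 reads, or 310 CPM (276 to 348) and 224 CPM (199 to 251). Its log2 ratio then turned from 0.44 to -0.47, and the intervals no longer overlapped. Spliced Neat1 models held 24 of these 288 reads and 7 of these 292, a smaller share in both libraries than among the reads of Neat1 itself. With annotated models alone, which leaves out nearly all spliced Neat1 reads, the ratio was 1.22, past 2-fold. For Gas5, Snhg1, Snhg6, Snhg8 and Malat1 the same joining moved no ratio across 2-fold or through 0.

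**Figure D4:**
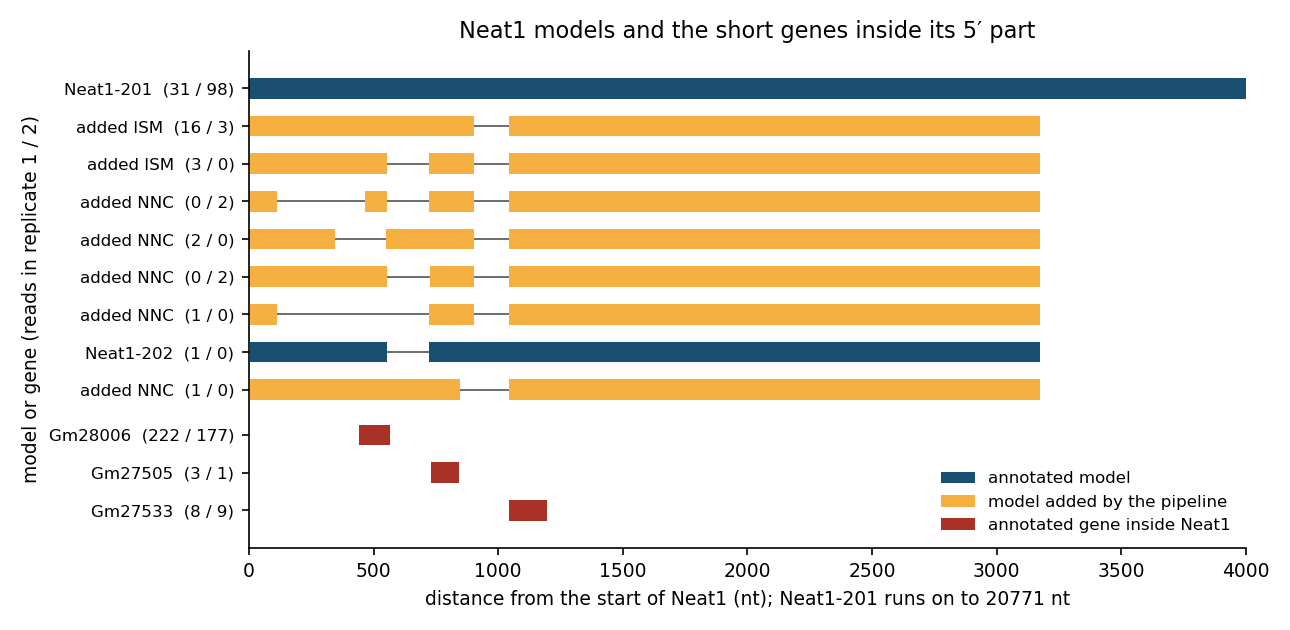
Exons of each Neat1 model as boxes against the distance from the gene start in nt, over the first 4000 nt, with reads in replicate 1 and replicate 2 in brackets, and the 3 short annotated genes inside Neat1 in red. The spliced models all end at 3172 nt, and Gm28006 (222 and 177 reads) lies at 442 to 563 nt.

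Gas5, at chr1:161034422-161038539, was the most finely divided member, with 18 models in replicate 1 and 24 in replicate 2, of which 12 and 17 had a single read. It has 10 annotated snoRNA genes at 9 places, and all 9 places lie in introns of Gas5-210. The annotated 12-exon model Gas5-224 led in replicate 1 with 11 of 47 reads (23.4%, 12.3 to 38.0%), followed by Gas5-210, with 11 exons, with 9 (19.1%). In replicate 2 Gas5-210 led with 33 of 92 reads (35.9%, 26.1 to 46.5%), followed by Gas5-224 with 24 (26.1%). The intervals of each model overlapped between the libraries, so the change of order was not resolved at this depth.

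There were 8 exon chains of Gas5 common to both libraries, which held 37 of 47 and 71 of 92 reads. Gas5 models that keep intron sequence and so cover at least 50% of a snoRNA gene in an exon took 20 of 47 reads in replicate 1 (42.6%, 28.3 to 57.8%) and 12 of 92 in replicate 2 (13.0%, 6.93 to 21.7%), without overlap of the intervals. Over all 7 hosts this share was 29.1% (19.4 to 40.4%) and 11.1% (7.10 to 16.3%), and Gas5 gave 20 of 23 and 12 of 22 of these reads. Whether such reads are unfinished splicing or stable forms was not tested.

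**Figure D5:**
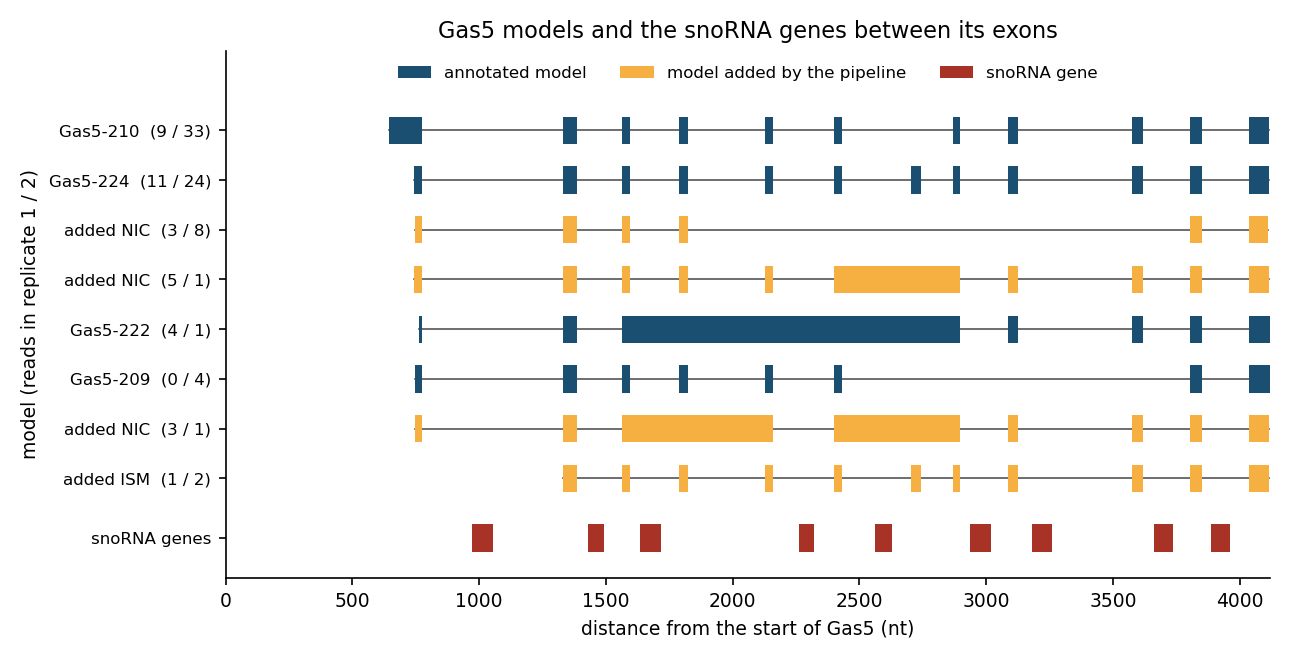
Exons of the 8 Gas5 exon chains with 3 or more reads over both libraries against the distance from the gene start in nt, with reads in replicate 1 and replicate 2 in brackets and the annotated snoRNA genes in red. The snoRNA genes fall between the exons of Gas5-210 and Gas5-224, and wide boxes mark chains whose exons run across 1 or more of them.

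The other hosts were led by an annotated spliced model. Snhg1-211, with 10 exons, had 5 of 10 reads and 11 of 18. Snhg8-201, with 3 exons, had 7 of 8 and 35 of 38. Snhg18-201, with 2 exons, had 11 of 12 and 23 of 29. In replicate 2 Snhg6-203 had 9 of 13 reads and Snhg12-206 had 4 of 7, while in replicate 1 Snhg6-203 and Snhg6-205 had 1 read each and Snhg12 had none. Of the 7 members with reads in both libraries, 5 had the same leading model in both, Gas5 and Snhg6 being the exceptions.

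In Snhg18, the host of Snord123, 6 of the 29 reads in replicate 2 were credited to a single-exon model of 162 nt at chr15:32241608-32241769, which had no reads in replicate 1. The sequence around its 3′ end is shown because the model stops directly before the longest run of A in the transcript. The stretch lies at chr15:32241568-32241637 on the minus strand, and capitals mark the run.
Snhg18 A run: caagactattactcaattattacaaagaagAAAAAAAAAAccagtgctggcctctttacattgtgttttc
The model spans bases 282 to 443 of Snhg18-201, within the second exon and with no intron sequence, and the run of 10 A spans bases 444 to 453. A run of at least 10 A is found in 7.18% of all annotated transcripts and in 6.49% of those of like length. Whether these reads were primed at the run was not tested.

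Reads credited to the snoRNA genes inside the hosts were few. The 7 hosts hold 28 annotated snoRNA genes at 26 places, which together had 4 reads in replicate 1 and 8 in replicate 2. They were Mir5117, annotated as a snoRNA, inside Gas5 (0 and 5), Snora24 (3 and 1), Snord22 inside Snhg1 (0 and 2) and Snord87 (1 and 0). Over all 1507 annotated snoRNA genes, 31 had reads in replicate 1 and 34 in replicate 2, with 75 and 467 reads in all. Snord13 held 51.0% of the snoRNA reads of replicate 2 (46.3 to 55.6%), ahead of Snord104 with 23 and 119 reads in replicates 1 and 2 and Snora57 with 7 and 32. Without Snord13 the snoRNA reads were 75 and 229, so the excess of replicate 2 was not in Snord13 alone. These counts are not scaled to depth, and Snord104 alone held 119 of the 229. All tested genes with a main transcript of 700 nt or less also had a median log2 ratio of 1.54. An excess across snoRNAs as a class is thus not shown.

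Start sites are shown for the hosts because a run of pyrimidines at the start is a known mark of this gene class. Windows come from RefSeq on GRCm38.p6 and cover 20 bases before the RefSeq start and 30 from it, and 7 of the 10 members had an entry, Gas5 with an upstream and a downstream start. Capitals mark the run of C and T that begins at the start base. The windows lie at chr1:161035146-161035195 for the downstream Gas5 start, chr3:123508307-123508356 for Snhg8 and chr4:132308658-132308707 for Snhg12. That of Snhg18 lies at chr15:32244633-32244682 and that of Snhg1 at chr19:8723467-8723516. Snhg8 and Snhg18 are on the minus strand.
Gas5 start: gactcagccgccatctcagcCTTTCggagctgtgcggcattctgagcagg
Snhg8 start: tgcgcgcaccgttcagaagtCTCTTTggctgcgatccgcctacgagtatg
Snhg12 start: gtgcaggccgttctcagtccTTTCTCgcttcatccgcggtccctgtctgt
Snhg18 start: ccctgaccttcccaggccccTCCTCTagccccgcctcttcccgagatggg
Snhg1 start: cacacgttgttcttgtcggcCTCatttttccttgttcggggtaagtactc
The run was 6 bases in Snhg8, Snhg12 and Snhg18, 5 in Gas5 and 3 in Snhg1. A run of at least 6 is found in 2.93% of the 32851 promoters in the table, of at least 5 in 4.44% and of at least 3 in 10.7%. The upstream Gas5 start and the start of Snhg11 had no run, and Malat1 had a run of 1.

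For models that the pipeline added, the listed 5′ ends can be set beside these starts, with the same limit on how ends were placed. In Gas5, 17 of 21 reads of added models in replicate 1 and 16 of 30 in replicate 2 began within 5 bases of the downstream RefSeq start, and 10 and 15 of them at that very base. Near the upstream RefSeq start, 2 added models of 1 read each in replicate 2 began 6 bases from it. In Snhg1, 2 of 3 reads of added models in replicate 2 began at the RefSeq start itself, 12 bases inside the annotated start of Snhg1-211, and none of 3 did in replicate 1. Other leading models also have annotated starts upstream of RefSeq: Snhg8-201 at 123508404 against 123508336, and Gas5-210 at 161035067 against 161035166. Gas5-224 starts at 161035163, and Snhg12-206 and Snhg18-201 start at the RefSeq base. Where reads of annotated models began is not given.

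Genes of the same pathways were compared between the libraries with Fisher's exact test on the reads, adjusted by the Benjamini-Hochberg method over all 11650 genes, which compares these 2 libraries and no conditions. By that test 13.0% of all genes were higher in replicate 2 and 22.2% lower. Of 10 other tested genes listed as snoRNA hosts without a coding role, 5 were higher and 1 lower, with a median log2 ratio of 0.89 against -0.25 over all genes. Snhg3 had 9 and 46 reads (log2 ratio 1.80, Fisher's exact test, adjusted p = 0.000559) and Snhg9 had 29 and 76 (0.88). Mir22hg, listed with them but known as the host of a microRNA, was the lower one with 53 and 42 reads (-0.82), and Snhg5 had 28 and 27 and did not pass. Of 22 coding hosts, mostly ribosomal protein and translation factor genes, 12 were higher and 7 lower, with a median of 0.55. All 203 tested protein-coding genes with an annotated snoRNA gene inside did not share that balance, with 34 higher, 54 lower and a median of -0.28, near that of all genes. Among the 22, Eef2, the elongation factor that moves the ribosome, was higher (657 and 1613 reads), and the chaperone gene Hspa8 was lower (1939 and 1737 reads), as were Rpl3 (1230 and 1364) and Rpl4 (966 and 1190).

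Of 9 other nuclear or long noncoding RNAs, 2 were higher, 1 was lower and 6 did not pass. H19, an imprinted growth-restraining RNA, had 232 and 618 reads (0.92), and Meg3, another imprinted RNA, had 42 and 204 (1.78). Peg13 had 33 and 6 reads (-2.86), and 2900097C17Rik, with 73 and 74 reads, did not pass (-0.47). Only 1 of 15 listed short structured RNAs had enough reads, Snord118 with 1 and 17, which was higher (3.05). Snora73a had 8 and 0 reads, and Rn7s1 and Rn7sk, abundant RNAs of cells, had 0 and 1 each.

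For genes of proteins that act with these RNAs, the medians are to be read against -0.25 over all genes. Of 14 genes of paraspeckle proteins, 1 was higher and 5 lower (median -0.38), among them Nono, a core paraspeckle protein (149 and 143 reads, -0.55), Hnrnpk (825 and 740, -0.65) and Ewsr1 (407 and 294, -0.96), and Matr3 did not pass (109 and 139). Of 14 genes of snoRNA-binding and assembly proteins, 3 were higher and 4 lower, and the median of -0.28 was close to that of all genes: Nop10 of the H/ACA particle was higher (98 and 402 reads, 1.54), as was Snu13 (0.44), while Ruvbl2 was lower (-0.47) and the methyltransferase gene Fbl did not pass (107 and 123). Of 13 nonsense-mediated decay genes, 2 were higher and 6 lower (median -0.64), among them the helicase gene Upf1 (59 and 37 reads, -1.16), Upf3a (-0.64) and Eif4a3 (-0.25), and Rbm8a did not pass (69 and 114).

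In all, 26 of the 81 listed genes were higher and 23 lower, with Nop56 and Nop58 on both the coding host and the snoRNA-binding list. With the totals rescaled by TMM, a trimmed mean of gene ratios, the counts were 30 and 10, and over all genes 1981 and 1328 in place of 1510 and 2581, so the share of lower calls depends on the scaling. The coding hosts then had 15 higher and 2 lower, the decay factors 2 and 2, the paraspeckle proteins 1 and 3, the snoRNA-binding proteins 4 and 3, and the other noncoding hosts 6 and 0. That scaling adds 0.26 to every log2 ratio, which takes Snhg18 to 1.01, just past 2-fold, and changes no other call among the members. With edgeR's exact test and an assumed biological coefficient of variation of 0.4, which allows for animal-to-animal spread that 2 libraries of 1 group cannot measure, 0 of the 81 passed in either direction, and over all 11650 genes 28 were higher and 2 lower.

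Among the 127 noncoding genes with a mean of at least 10 CPM, 50 were 2-fold or more higher in replicate 2 and 9 were lower, with a median log2 ratio of 0.55. Over all genes the shares were 13.4% and 14.8% and the median -0.25. A gene with 0 reads in replicate 1 reached that mean only through replicate 2, where it is high, so the count and the median are not evidence of a shift. The largest excess outside the members was in AC154200.1 (0 and 118 reads, at least 28.0-fold) and D130009I18Rik (0 and 99, at least 23.5-fold), followed by Mir1906-1 (0 and 55), CT025731.4 (0 and 42) and Gm37401 (4 and 189). At the other end were Peg13, Trerf1 (21 and 7 reads), Tctn2 (18 and 6), 2900005J15Rik (20 and 7) and 9330151L19Rik (17 and 9). Trerf1 and Tctn2 are in this set only because the annotation lists them as processed transcripts.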

How the data were processed

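The authors deposited, for each library, raw read counts per transcript model, with each model's exon number and its length without introns in bases, and the models' exon positions on mm10. Per the file headers, the build was mm10 with GENCODE M21, and the classes are those of TALON; for the aligner and all versions, the sources used here give nothing. Reads were summed per gene name and scaled to reads per 1000000 on annotated genes, without spike-ins and unannotated loci. Tests needed 10 reads over both libraries. With 2 libraries of 1 group, edgeR's quasi-likelihood test has no residual degrees of freedom, so related lists were tested with Fisher's exact test (threshold 0.05, Benjamini-Hochberg), checked on simulated data. The members and lists were chosen with earlier results of these data known. Named genes were the members, the 4 with the highest mean per list, and the 5 highest and lowest noncoding genes by log2 ratio. Alternatives were other scalings (edgeR 4.0.16, DESeq2 1.42.0), edgeR's exact test with an assumed variation, filters, model sets, a transcript length adjustment and, added after seeing the data, counting genes inside members with them. Python 3.11.15, scipy 1.17.1 and R 4.3.3 were used. Members were matched to RefSeq start windows by symbol.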

Additional observations from a re-analysis of the deposited data

Results flagged for a closer look

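Reads of unannotated loci on the strand opposite the members, which the comparisons do not use, were above the limit of 3 reads in at least 1 library for 4 members. Such antisense loci were common: over all genes they took 2.61% of all reads in replicate 1 and 4.16% in replicate 2. The share of all genes past that limit was not counted, so nothing is read from the count of members. Opposite Malat1 there were 17 reads in replicate 1 and 109 in replicate 2, and the annotated gene Gm37376 on that strand had 0 and 26 reads. Opposite Neat1 there were 14 and 46, opposite Snhg1 there were 6 and 4, and opposite Snhg11 there were 3 and 5, more than the 0 and 1 reads of Snhg11 itself. Malat1 itself had 23 and 1708 reads, so the opposite-strand reads equalled 73.9% of its own in replicate 1 and 6.38% in replicate 2. How the strand of a read was set is not given in the sources used here.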

How the results depend on the processing

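No paired analysis was possible because the series has a single group. Leaving out a replicate leaves no ratio or test, so it was run for levels and shares only: the member sum ranged from 169 to 1725 CPM, the single-exon share from 35.7 to 91.3% and the annotated-model share from 69.4 to 97.8%. Against the median of the transcript length bin, 2 members in place of 4 were 2-fold higher and 1 in place of 0 lower, Gas5 reversed to -0.98 and Snhg1 to -1.12. With genes inside members counted with them, Neat1 reversed to -0.47, and with annotated models alone it passed 2-fold at 1.22, as Snhg18 did at 1.01 with TMM and 1.0 with DESeq2 size factors. The mean single-exon share fell from 63.5% to 3.54% without Malat1, Neat1 and Snord13. Listed genes lower in replicate 2 went from 23 to 10 with TMM, with DESeq2 size factors and with 2-fold in place of the test, and to 0 with edgeR, where the higher ones went from 26 to 0. Of 71 alternative log2 ratios of single members, 63 kept their direction and their side of 2-fold. The cause of these shifts was not tested. Depth limits Snhg6, Snhg11 and Snhg12 most, which had at most 13 reads in a library.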
